A study of Mus musculus with 12 samples.

Results

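A set of 10 genes of the Polycomb system was followed through 12 mouse RNA-seq libraries: Rnf2, Ring1, Bmi1, Pcgf6, Cbx2, Cbx8, Ezh1, Ezh2, Eed and Suz12. They are 10 of the 34102 genes in the deposited count table, were chosen by symbol, and were picked with earlier results of these data known, so that their own values are a description. Total RNA came from C57BL/6 mice or cells. The 4 groups of 3 libraries are cortex of Srsf10 flox/flox mice with Nestin-Cre (labelled cKO), cortex of Srsf10 flox/flox mice without Nestin-Cre (control), primary cultured neural progenitor cells (NPC) labelled SRSF10 knockdown, and NPC labelled WT (control). Nestin-Cre makes the recombinase in neural progenitors and their descendants, and both cortex groups carry the floxed allele. No group carries Nestin-Cre alone, so effects of the transgene and of the floxed gene cannot be told apart. NPC were infected in suspension with lentivirus at a multiplicity of infection of 30, and RNA was taken 72 h later. The labels give this protocol for both NPC groups and do not say which virus the controls received. The age of the mice and whether each library is a separate animal or culture are not stated in the labels, so p-values measure the spread between libraries, which may be technical.

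The libraries held 26074094 to 36713205 counts. All 8 neuronal markers were above 1 count-per-million (CPM) in both cortex groups, and 6 of 7 progenitor markers were above it in both NPC groups, where Eomes was under it. The lists were not exclusive to one system. In both NPC groups 6 of 8 neuronal markers also passed 1 CPM, as did 7 of 7 progenitor markers in both cortex groups. Most neuronal markers were low in NPC, however. Map2 averaged 1107 CPM over the NPC libraries, and the next highest, Tubb3, averaged 11.5 CPM there and 2212 CPM in cortex. NPC held glial lineage markers too, with Olig1 averaging 1734 CPM in labelled knockdown and 1659 CPM in control NPC, and Slc1a3 1324 and 1281 CPM. Srsf10 itself, which encodes an SR-type splicing regulator, stood at 187 to 224 CPM in labelled cKO cortex and at 198 to 220 CPM in control cortex (log2 fold change 0.03, SE 0.08). It stood at 217 to 239 CPM in labelled knockdown NPC and at 223 to 249 CPM in control NPC (log2 fold change -0.05, SE 0.07). The targeted transcript was thus not lower beyond the spread in either system, and the groups are called by their labels. Choroid plexus RNA, seen as Ttr above 1000 CPM, marked cKO replicate 3 and control replicate 2 in cortex.

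Polycomb proteins keep developmental genes silent through a pair of chromatin complexes. Polycomb repressive complex 1 (PRC1) is built on RING1B, the product of Rnf2, or on its paralog RING1, which places ubiquitin on histone H2A together with a PCGF subunit such as BMI1 or PCGF6; chromobox subunits such as CBX2 and CBX8 tie one form of it to methylated histone H3. Polycomb repressive complex 2 (PRC2) writes that methyl mark through EZH2 or EZH1, and needs EED and SUZ12 to do so. In the developing cortex the complexes are known for holding the pace at which progenitors pass from making neurons to making glia.

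Rnf2, the only one of the 10 called in NPC without pairing, carries a short sequence in its 3′ UTR that stood out in earlier work on these same NPC genes. The hexamers ACCGAC and CCGACT, which share 5 bases and merge in ACCGACT, were singled out there because genes that fell in labelled knockdown NPC often hold them, so their presence in Rnf2 is no independent evidence. The transcript strand of annotated 3′ UTRs (GENCODE M21, mm10; minimum length 50 bases) was searched, and 1535 of 12693 genes tested in NPC held either hexamer (12.1%). Among the 10 Polycomb genes 3 held one: Rnf2 at base 1511 of a 1911-base 3′ UTR (chr1:151469791-151469815, minus strand), Cbx8 at base 2013 of 2372 (chr11:119036649-119036674, minus strand) and Ezh2 at base 287 of 402 (chr6:47530239-47530264, minus strand). The sites are shown because the 3 genes were called differently in NPC. Rnf2 was lower, Ezh2 was called higher only when libraries were paired, and Cbx8 was called neither way. Capitals mark the hexamer or the merged pair.
Rnf2: taatcttgagCCGACTatgaaaact
Cbx8: ctatctggctACCGACTccctttctc
Ezh2: ctagaacatcACCGACTgattctaga
The sites of Cbx8 and Ezh2 hold both hexamers and that of Rnf2 holds CCGACT alone.

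Rnf2 (ENSMUSG00000026484, chromosome 1, 151458004 to 151500955, minus strand) encodes the main catalytic subunit of PRC1. In NPC, Rnf2 stood at 67.9, 64.0 and 66.1 CPM in labelled knockdown libraries, against 105, 106 and 109 CPM in control libraries. All 3 knockdown libraries lay below all 3 controls, and the spread within each group was small (66.0 ± 1.92 and 107 ± 1.86 CPM, SD, n = 3 each). Its log2 fold change of -0.69 (SE 0.06, 95% interval -0.83 to -0.56) corresponds to a level 0.620 of the control's (adjusted p = 0.00555, edgeR's quasi-likelihood test with Benjamini-Hochberg adjustment over all genes). Because NPC replicate numbers pair the libraries, the ratio can also be read pair by pair: the log2 ratios were -0.63, -0.72 and -0.72. In bulk RNA, fewer cells with the transcript and less of it per cell cannot be told apart. Exons of Rnf2 overlap those of Trmt1l on the other strand over 158 bases, and it is not stated whether counting used the strand. The same kind of overlap covers 174 bases of Ezh2 (with Gm26625), 261 of Eed (with E230029C05Rik) and 178 of Suz12 (with Gm26563). Trmt1l, a tRNA methyltransferase homologue, stood at 31.0 to 33.9 CPM in labelled knockdown NPC and 35.6 to 36.5 CPM in control NPC (log2 fold change -0.14, SE 0.07, adjusted p = 0.332 in edgeR).

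In cortex the same gene showed no such difference. Rnf2 stood at 153, 149 and 169 CPM in labelled cKO cortex, against 169, 153 and 158 CPM in control cortex. The groups overlapped throughout (157 ± 10.7 and 160 ± 8.07 CPM, SD, n = 3 each; log2 fold change -0.02, SE 0.07, 95% interval -0.18 to 0.13). The difference between the systems was itself tested: the change in NPC minus the change in cortex was -0.65 (SE 0.09, adjusted p = 0.00431, edgeR). Of all 16569 genes in that fit 1.46% were called, and Rnf2 was the only member called. Ring1 does not count there, since its cortex counts could not be read.

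**Figure D1:**
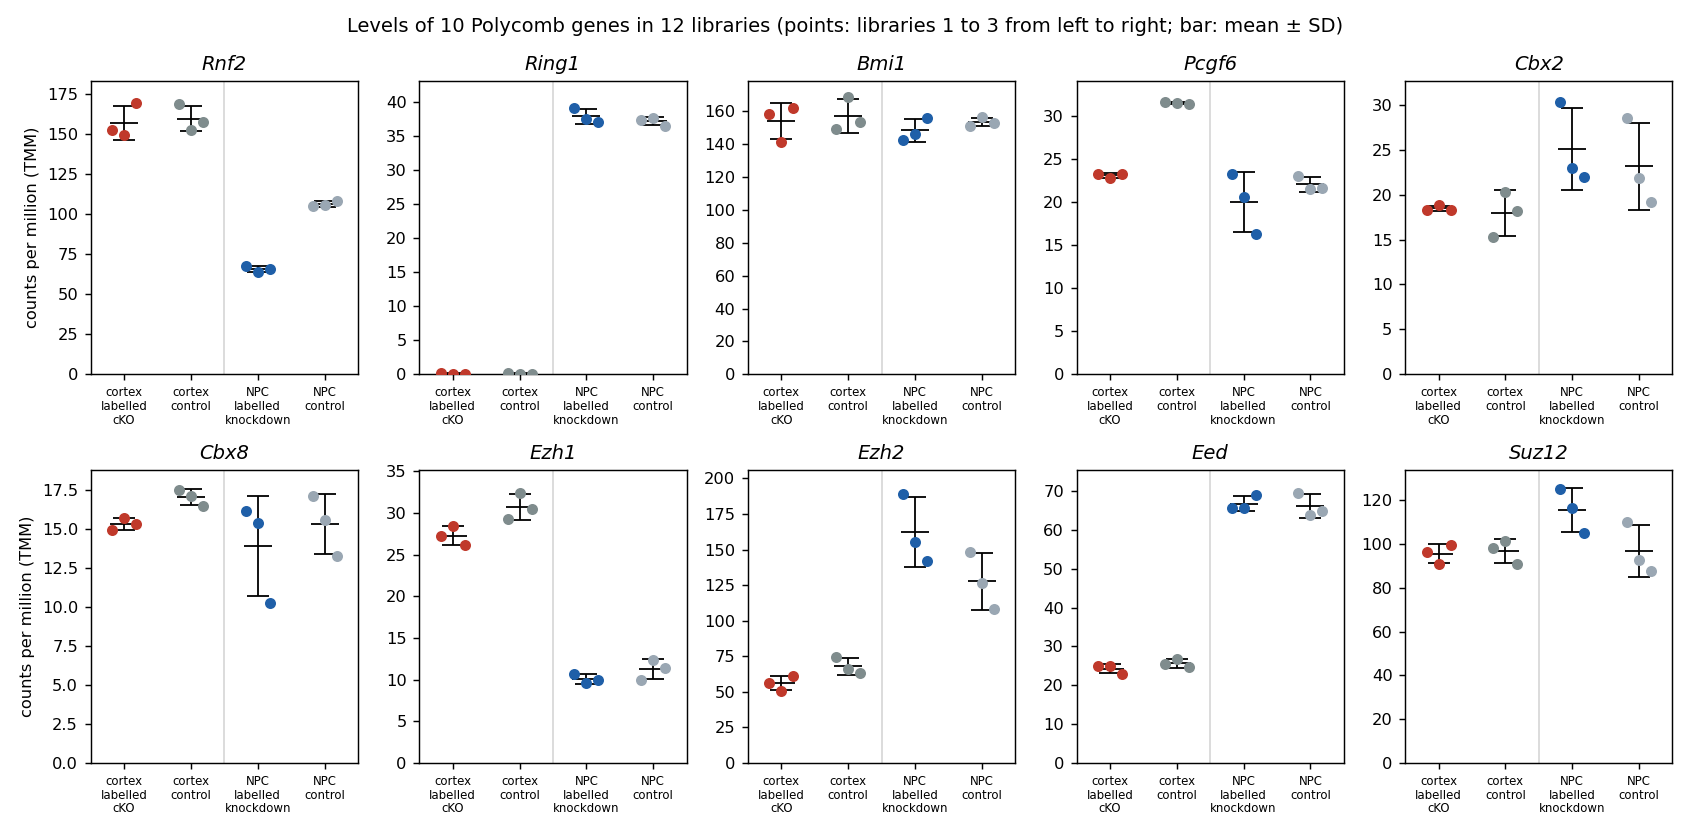
Levels of the 10 Polycomb genes in TMM-scaled counts-per-million (vertical axis of each panel, from 0) in labelled cKO cortex, control cortex, labelled knockdown NPC and control NPC; points are libraries and bars the mean ± SD of 3. Rnf2 lies at 64.0 to 67.9 CPM in labelled knockdown NPC and 105 to 109 CPM in control NPC, and Pcgf6 separates the cortex groups. Ring1 is plotted near 0 in cortex, where it could not be read, as neighbouring genes were low there too.

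Ring1 (ENSMUSG00000024325, chromosome 17, 34020792 to 34024680, minus strand) encodes the other catalytic subunit. In NPC it stood at 39.0, 37.5 and 37.0 CPM in labelled knockdown libraries, against 37.4, 37.7 and 36.4 CPM in control libraries. The groups overlapped, and the log2 fold change was 0.03 with a 95% interval of -0.12 to 0.17. Ring1 was therefore not higher by more than that bound where Rnf2 was lower. As a share of Rnf2 and Ring1 together, on levels divided by exon length, Rnf2 made up 57.7%, 57.3% and 58.4% in labelled knockdown NPC, against 68.9%, 68.8% and 70.1% in control NPC. That share was lower in every knockdown library than in any control.

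In cortex Ring1 could not be read. Its counts were 8, 0 and 2 in the labelled cKO libraries and 6, 0 and 0 in the control libraries, and it did not pass the count filter. The genes around it were low in cortex as well. Of 34 protein-coding genes within 1 Mb of Ring1 with a mean of at least 500 counts over the NPC libraries, 17 averaged under 10 counts in cortex, whereas elsewhere in the genome 30 of 8178 did (0.367%). Rxrb, a retinoid receptor gene 7.1 kb away, averaged 872 counts in NPC and 12.7 in cortex, and the neighbouring Brd2, a general chromatin reader, averaged 9833 and 35.2. Rps18, a ribosomal protein gene inside the stretch, averaged 15042 and 1630 counts, and Hnrnpm, 334 kb away, averaged 9297 and 7201. Low cortex counts were thus shared by neighbouring genes with unlike roles, and what made them was not tested. No share or interaction of Ring1 in cortex is given for this reason, and its plotted cortex values are not read as a level.

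**Figure D2:**
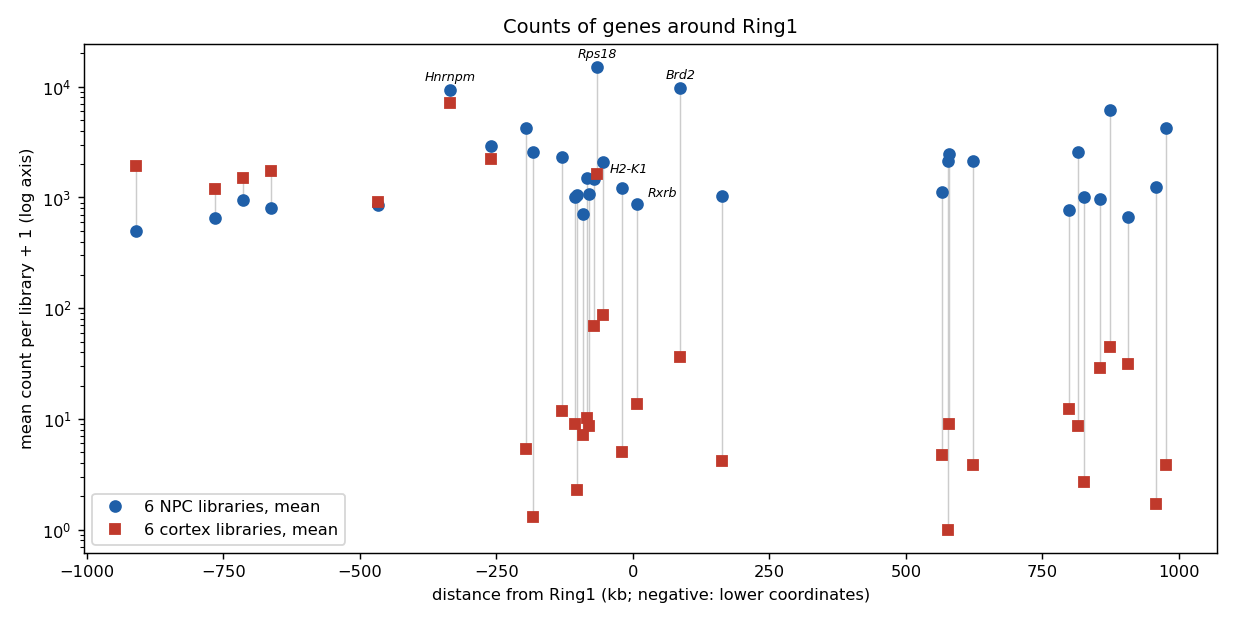
Mean count per library plus 1 (log axis) of protein-coding genes within 1 Mb of Ring1 against their distance from it in kb; circles are the mean of 6 NPC libraries, squares that of 6 cortex libraries, and grey lines join the same gene. Rxrb averages 872 counts in NPC and 12.7 in cortex, while Hnrnpm, 334 kb away, averages 9297 and 7201.

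Bmi1 and Pcgf6 encode PCGF subunits, Bmi1 of the canonical complex that carries chromobox proteins and Pcgf6 of a variant complex. Bmi1 (ENSMUSG00000026739, chromosome 2, 18677018 to 18686629, plus strand) stood at 143, 146 and 156 CPM in labelled knockdown NPC, against 151, 156 and 153 CPM in control NPC. It stood at 158, 141 and 162 CPM in labelled cKO cortex, against 149, 168 and 153 CPM in control cortex. The groups overlapped in both systems, with log2 fold changes of -0.05 (95% interval -0.19 to 0.09) in NPC and -0.03 (-0.19 to 0.13) in cortex.

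Pcgf6 (ENSMUSG00000025050, chromosome 19, 47033617 to 47050906, minus strand) had the largest cortex difference of the 9 tested genes. It stood at 23.3, 22.7 and 23.3 CPM in labelled cKO cortex, against 31.6, 31.5 and 31.4 CPM in control cortex. The groups were tight and did not overlap (23.1 ± 0.304 and 31.5 ± 0.144 CPM, SD, n = 3 each). A log2 fold change of -0.45 (SE 0.08, 95% interval -0.63 to -0.26), or a level 0.733 of the control's, missed the threshold over all genes (unadjusted p = 0.000273, adjusted p = 0.0717, edgeR). Pcgf6 was called in cortex by DESeq2 (adjusted p = 0.00127), which called 2.28% of all genes, and by edgeR without the count filter (adjusted p = 0.0398), which called 0.684%. In NPC it stood at 23.2, 20.6 and 16.3 CPM in labelled knockdown libraries, against 23.0, 21.5 and 21.6 CPM in control libraries. There replicate 3 alone was low, and the log2 fold change was -0.14 (SE 0.13, adjusted p = 0.626, edgeR). Its changes in the 2 systems were not shown to differ (NPC minus cortex 0.32, SE 0.16, adjusted p = 0.378, edgeR).

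Cbx2 and Cbx8 encode chromobox subunits and lie side by side on chromosome 11. Cbx2 (ENSMUSG00000025577, 119022962 to 119031270, plus strand) stood at 30.3, 22.9 and 22.0 CPM in labelled knockdown NPC, against 28.5, 21.8 and 19.1 CPM in control NPC. Replicate 1 was the highest of both groups, each knockdown library lay slightly above its same-numbered control, and the log2 fold change was 0.12 (SE 0.18). In cortex Cbx2 stood at 18.3, 18.8 and 18.3 CPM in labelled cKO libraries and at 15.2, 20.3 and 18.2 CPM in control libraries, which overlapped (log2 fold change 0.04, SE 0.12). Cbx8 (ENSMUSG00000025578, 119036305 to 119040969, minus strand), one of the hexamer carriers, stood at 16.2, 15.4 and 10.3 CPM in labelled knockdown NPC, against 17.1, 15.6 and 13.3 CPM in control NPC. The groups overlapped (log2 fold change -0.14, SE 0.19, 95% interval -0.57 to 0.30). In cortex Cbx8 stood at 15.0, 15.7 and 15.3 CPM in labelled cKO libraries and at 17.5, 17.1 and 16.5 CPM in control libraries. These did not overlap, but the log2 fold change of -0.15 (SE 0.10, adjusted p = 0.621, edgeR) was not called.

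Ezh2 and Ezh1 encode the methyltransferases of PRC2, Ezh2 the form of dividing cells and Ezh1 that of resting ones. Ezh2 (ENSMUSG00000029687, chromosome 6, 47530139 to 47595341, minus strand) stood at 189, 156 and 142 CPM in labelled knockdown NPC, against 148, 127 and 108 CPM in control NPC. Replicate 1 was highest and replicate 3 lowest in both groups, so the groups overlapped while each knockdown library lay above its same-numbered control (log2 ratios 0.35, 0.30 and 0.39). Without pairing the log2 fold change was 0.35 (SE 0.14, adjusted p = 0.260, edgeR). With the replicate number as a block it was 0.35 (SE 0.05, adjusted p = 0.000225, edgeR). In cortex Ezh2 stood at 56.6, 50.9 and 60.8 CPM in labelled cKO libraries, against 74.8, 66.3 and 63.1 CPM in control libraries. All 3 cKO libraries lay below the controls, and the log2 fold change of -0.28 (SE 0.10, 95% interval -0.50 to -0.06, adjusted p = 0.318, edgeR) was not called. The change in NPC minus that in cortex was 0.64 (SE 0.18, adjusted p = 0.102, edgeR), and 0.64 (SE 0.11, adjusted p = 0.00611, edgeR) with the block in NPC. The fit with the block called 5.05% of all genes, and DESeq2 without it, where Ezh2 had an adjusted p of 0.0230, called 5.87%.

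Ezh1 (ENSMUSG00000006920, chromosome 11, 101191115 to 101226463, minus strand) stood at 10.7, 9.63 and 9.95 CPM in labelled knockdown NPC, against 10.0, 12.4 and 11.4 CPM in control NPC. It stood at 27.2, 28.4 and 26.1 CPM in labelled cKO cortex, against 29.2, 32.4 and 30.5 CPM in control cortex. The cortex groups did not overlap and the NPC groups did. Neither difference was called, with log2 fold changes of -0.16 in NPC (SE 0.12) and -0.17 in cortex (SE 0.09, adjusted p = 0.520, edgeR). On per-length levels Ezh2 made up 94.7 ± 0.540% of the pair in labelled knockdown NPC and 92.5 ± 1.55% in control NPC, and 69.5 ± 2.79% in labelled cKO cortex and 71.1 ± 2.54% in control cortex (SD, n = 3 each). The shares overlapped between the groups of each system, though in NPC the knockdown library of each pair had the higher one (95.2%, 94.7% and 94.1%, against 94.3%, 91.9% and 91.4% in the controls).

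Eed and Suz12 encode the core partners that EZH proteins need. Eed (ENSMUSG00000030619, chromosome 7, 89954654 to 89980983, minus strand) stood at 65.6, 65.6 and 69.0 CPM in labelled knockdown NPC, against 69.5, 63.8 and 64.7 CPM in control NPC. It stood at 24.9, 24.9 and 23.0 CPM in labelled cKO cortex, against 25.5, 26.8 and 24.6 CPM in control cortex. Groups overlapped in both systems (log2 fold changes 0.02, 95% interval -0.14 to 0.17, in NPC and -0.08, -0.28 to 0.12, in cortex). Suz12 (ENSMUSG00000017548, chromosome 11, 79993106 to 80034123, plus strand) stood at 125, 116 and 105 CPM in labelled knockdown NPC, against 110, 92.7 and 87.5 CPM in control NPC. As for Ezh2, replicate 1 was highest in both groups and each knockdown library lay above its same-numbered control. The log2 fold change was 0.25 (SE 0.10, adjusted p = 0.260, edgeR) without pairing and 0.26 (SE 0.05, adjusted p = 0.00283, edgeR) with the block. Leaving out pair 2 ended the blocked call of Suz12 (adjusted p = 0.0541, edgeR), in a fit that called 15.2% of all genes. In cortex it stood at 96.4, 90.6 and 99.4 CPM in labelled cKO libraries and at 97.9, 101 and 91.0 CPM in control libraries, which overlapped (log2 fold change -0.02, SE 0.07).

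Counted together, 1 of the 10 genes was called in NPC without pairing, Rnf2, lower. Of all 14258 genes tested there, 1.89% were called, and 1.54% were called lower. With the block, 3 of 10 were called (Ezh2 and Suz12 higher, Rnf2 lower), beside 24.7% of all genes, 11.9% higher and 12.8% lower, so the members' share is close to the background. Beside Rnf2, no member's NPC groups were without overlap (1 of 10, against 23.4% of all genes). In cortex 0 of 9 tested genes were called in edgeR, beside 0.171% of all genes. Of the 9, 2 had an unadjusted p under 0.05, beside 1719 of all 15781 genes. Estimates were negative for 8 of 9, while 50.7% of all genes had positive ones. Cortex groups did not overlap for Pcgf6, Cbx8, Ezh1 and Ezh2, all lower (4 of 9). Groups of 17.3% of all genes did not overlap, and 8.78% of all genes were lower without overlap. Beside these cortex values, the summed level of 6 oligodendrocyte lineage markers was 252 to 257 CPM in labelled cKO libraries and 289 to 306 CPM in control libraries, and the groups of 4 of the 6 (Gpr17, Pdgfra, Olig2 and Sox10) did not overlap. Gpr17 averaged 14.8 CPM in labelled cKO cortex and 25.7 CPM in control cortex (log2 fold change -0.79, adjusted p = 0.0214, edgeR). The sum was 2878 to 2928 CPM in labelled knockdown NPC and 2741 to 2771 CPM in control NPC, and that of 5 astrocyte markers was 1991 to 2173 CPM in labelled knockdown NPC and 1815 to 1857 CPM in control NPC. Single markers did not all follow these NPC sums. Olig1 and Olig2 were higher in 3 of 3 NPC pairs, Pdgfra was lower in 3 of 3, and Gpr17, Sox10 and Mbp were mixed. Of the astrocyte markers, Gfap was lower in 3 of 3 NPC pairs and Aqp4, Aldh1l1, S100b and Slc1a3 were higher in 3 of 3. The part of these cell types in the members' values was not tested. The median log2 fold change of the members was -0.02 in NPC and -0.08 in cortex, beside 0.005 and 0.0034 over all genes.

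**Figure D3:**
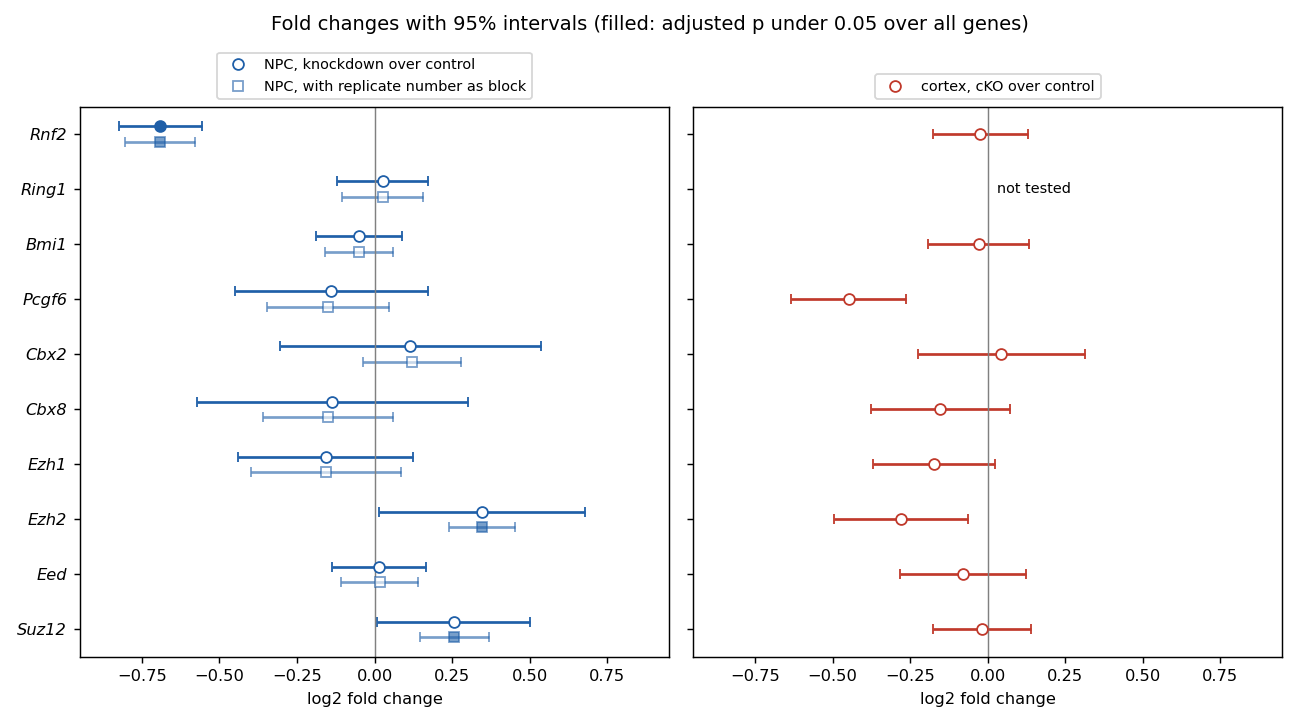
Log2 fold changes with 95% intervals of the 10 genes, labelled knockdown over control NPC on the left (circles without and squares with the replicate number as a block) and labelled cKO over control cortex on the right; filled symbols have an adjusted p under 0.05 over all genes. Rnf2 at -0.69 is filled in both NPC fits, Ezh2 at 0.35 and Suz12 at 0.26 only with the block, and no cortex symbol is filled.

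Ezh2 and Suz12 are known to be transcribed more in cycling cells, and cell cycle genes moved with them. All 15 listed S phase genes and all 15 listed G2 and mitosis genes were higher in the knockdown library of all 3 NPC pairs, as were 27.2% of all genes. With the block 15 of 15 of each list were called higher in edgeR, beside 11.9% of all genes, and without it 0 of 15 of each (6 of each had an unadjusted p under 0.05). Their median log2 fold changes with the block were 0.41 and 0.50. The summed S phase level was 2368, 2092 and 1842 CPM in labelled knockdown NPC, against 1962, 1557 and 1232 CPM in control NPC, in the same order over replicates as Ezh2. The cortex estimate of Ezh2 was negative but not called. There the S phase sum was 415 to 426 CPM in labelled cKO libraries and 437 to 459 CPM in control libraries. The G2 and mitosis sum was 293 to 336 CPM in labelled cKO libraries and 273 to 321 CPM in control libraries. In cortex 13 of 15 S phase estimates were negative and 10 of 15 G2 and mitosis estimates positive, and 0 of either list were called in edgeR. The part of the cell cycle genes in the Ezh2 and Suz12 values was not tested. Rnf2 varied little within either NPC group (66.0 ± 1.92 CPM in labelled knockdown and 107 ± 1.86 CPM in control, SD, n = 3 each). Its order over replicates was therefore not read, and the part of the cell cycle genes in its values was not tested.

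Levels per kilobase of exon give the make-up of the set. In labelled knockdown NPC the order was Bmi1 at 37.3 ± 1.76, Ezh2 at 24.3 ± 3.64, Suz12 at 23.3 ± 2.04, Eed at 17.4 ± 0.516, Rnf2 at 15.99 ± 0.465, Ring1 at 11.7 ± 0.330, Cbx2 at 5.89 ± 1.07, Pcgf6 at 3.98 ± 0.694, Cbx8 at 3.80 ± 0.874 and Ezh1 at 1.36 ± 0.0756 CPM per kb (SD, n = 3). In control NPC it was Bmi1 at 38.6 ± 0.661, Rnf2 at 25.8 ± 0.451, Suz12 at 19.6 ± 2.37, Ezh2 at 19.1 ± 3.005, Eed at 17.2 ± 0.803, Ring1 at 11.5 ± 0.199, Cbx2 at 5.44 ± 1.14, Pcgf6 at 4.39 ± 0.172, Cbx8 at 4.18 ± 0.525 and Ezh1 at 1.51 ± 0.161 CPM per kb (SD, n = 3). Rnf2 thus stood below all 3 PRC2 genes Ezh2, Suz12 and Eed in labelled knockdown NPC, and above them in control NPC. The ranges of mean ± SD of Ezh2 and Suz12 overlapped in both NPC groups, as did those of Pcgf6 and Cbx8. Cortex had Bmi1 and Rnf2 level at the top, at 38.7 ± 2.78 and 38.1 ± 2.58 CPM per kb in labelled cKO libraries and at 39.5 ± 2.54 and 38.7 ± 1.95 in control libraries. Suz12 followed there at 19.3 ± 0.901 and 19.6 ± 1.06, and Ezh2 at 8.40 ± 0.747 and 10.2 ± 0.900. Eed, Pcgf6, Cbx2, Cbx8 and Ezh1 lay between 3.66 and 6.35 CPM per kb in labelled cKO cortex and between 4.13 and 6.70 in control cortex. Pcgf6 stood at 4.59 ± 0.0606 CPM per kb in labelled cKO cortex and 6.27 ± 0.0286 in control cortex. Bmi1 made up 88.7% to 89.8% of Bmi1 and Pcgf6 together in labelled cKO cortex and 85.7% to 87.1% in control cortex, without overlap. The length used is the union of all annotated exons, so levels of genes with many rarely used exons are understated.

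**Figure D4:**
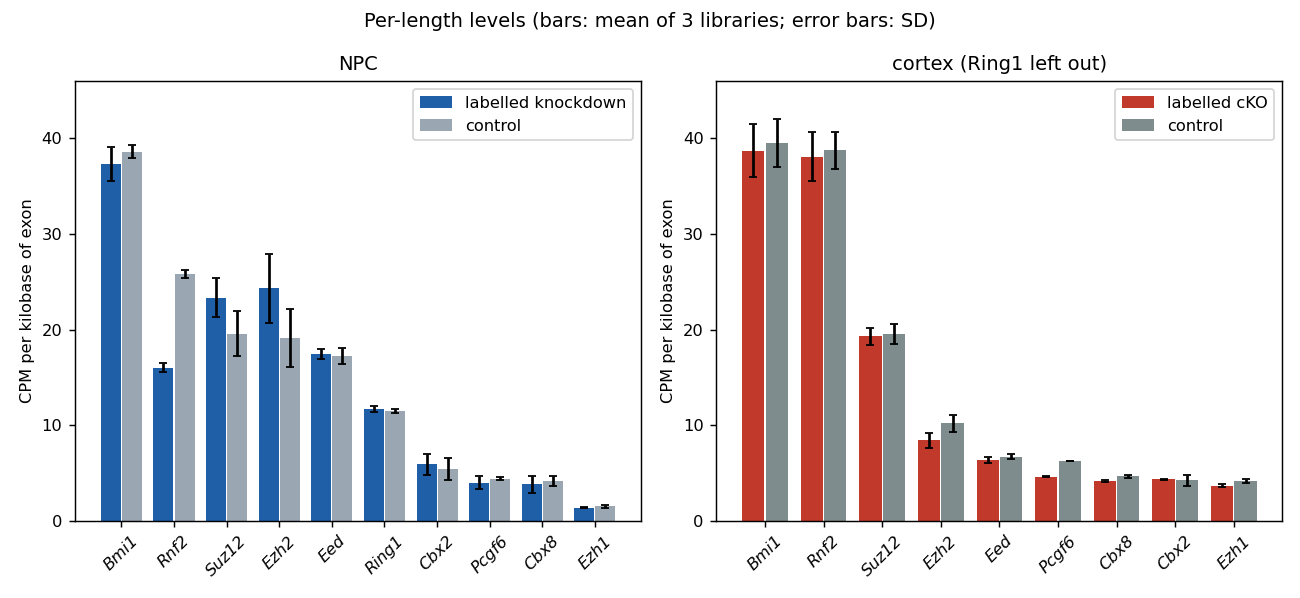
Levels in counts-per-million per kilobase of exon (bars, mean of 3 libraries; error bars, SD) in NPC on the left and cortex on the right, labelled knockdown or cKO beside control, with genes ordered by the control level. Rnf2 is the fifth in labelled knockdown NPC (15.99) and the second in control NPC (25.8), and level with Bmi1 in cortex.

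Among the other genes of the pathway, 44 of 46 listed were in the table. Without pairing 0 of 44 were called in NPC in edgeR (11 had an unadjusted p under 0.05, beside 2616 of all 14258 genes). DESeq2, which called 7.54% of all genes, called 5, all lower: Phc2, Max, Kdm6b, Bap1 and Dcaf7. With the block 16 of 44 were called, 9 higher and 7 lower, or 36.4% against 24.7% of all genes, with a median log2 fold change of 0.05. Of 27 further PRC1 genes, 4 were higher and 4 lower in labelled knockdown NPC with the block. The higher ones were Pcgf2 (log2 fold change 0.43, SE 0.14), which encodes the closest relative of BMI1, the chromobox gene Cbx6 (0.20, SE 0.06), and E2f6 (0.25, SE 0.05) and Tfdp1 (0.34, SE 0.06), whose products bind DNA as partners, E2F6 in the PCGF6 complex. Lower were the polyhomeotic gene Phc2 (-0.41, SE 0.05), Max (-0.31, SE 0.05), another DNA-binding partner in the PCGF6 complex, Auts2 (-0.40, SE 0.06), a neurodevelopmental gene whose product joins a variant PRC1, and its partner Dcaf7 (-0.18, SE 0.05). PCGF6 complex genes therefore lay on both sides of 0. Calls fell or rose over the whole table when a pair was left out. The blocked fit called 30.4% of all genes without pair 1, 15.2% without pair 2 and 11.4% without pair 3. Phc2, Max, Auts2 and Tfdp1 were called with the block whichever pair was left out. Leaving out pair 3 ended the calls of Pcgf2 (0.25, adjusted p = 0.314, edgeR), Cbx6 (adjusted p = 0.122, edgeR), E2f6 (0.0736) and Dcaf7 (0.0604), and leaving out pair 2 ended those of Cbx6, E2f6 and Dcaf7 (adjusted p 0.0591 to 0.259, edgeR). In the test of the difference between systems, with the block, 2 of the 44 other genes were called (4.55%, close to the 5.05% of all genes), Tfdp1 (NPC minus cortex 0.50, SE 0.09) and Auts2 (-0.53, SE 0.09).

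PRC2 had 9 further genes, of which 8 had a positive NPC estimate, beside 51.1% of all genes. Without the block 0 of the 9 were called. With it 5 were higher and 1 lower, beside 11.9% and 12.8% of all genes. The Polycomb-like genes Phf1 (0.35, SE 0.10), Phf19 (0.32, SE 0.09) and Mtf2 (0.22, SE 0.06), whose products help PRC2 to bind chromatin, were higher, as were the histone-binding subunit gene Rbbp7 (0.19, SE 0.05) and Lcorl (0.26, SE 0.06). Jarid2, whose product defines the other form of PRC2, was lower (-0.26, SE 0.07). Phf1, Phf19 and Mtf2 each lay above the same-numbered control in 3 of 3 pairs and Jarid2 below it in 3 of 3, which 27.2% and 26.6% of all genes did. Lcorl alone of the 6 was called whichever pair was left out. Without pair 3 the calls of the other 5 ended (adjusted p 0.0673 to 0.279, edgeR; Jarid2 at -0.16), without pair 2 those of Rbbp7 and Jarid2 (0.157 and 0.0550), and without pair 1 those of Mtf2 (log2 fold change 0.13, adjusted p = 0.0960, edgeR) and Phf1 (0.0576).

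Of 8 genes whose products remove the Polycomb marks, 2 were lower with the block and 0 higher, a share close to the 24.7% of all genes called. Kdm6b, a histone H3 demethylase, stood at 102, 84.8 and 95.3 CPM in labelled knockdown NPC, against 119, 116 and 130 CPM in control NPC. Bap1, the catalytic subunit of an H2A deubiquitinase, stood at 118, 120 and 125 CPM in labelled knockdown NPC, against 145, 144 and 143 CPM in control NPC. Neither gene's groups overlapped, as for 23.4% of all genes, with blocked log2 fold changes of -0.37 (SE 0.06, adjusted p = 0.000417, edgeR) and -0.25 (SE 0.05, adjusted p = 0.00225, edgeR), called whichever pair was left out. In cortex 0 of the 44 other genes were called in edgeR, beside 0.171% of all genes. An unadjusted p under 0.05 was found for 7 of the 44, beside 1719 of all 15781 genes. DESeq2, which called 2.28% of all genes in cortex, called 3 of the 44, all lower and named after their values were seen. They were Usp16 (-0.48), an H2A deubiquitinase, Usp7 (-0.31), a deubiquitinase that joins PRC1, and Bap1 (-0.30).

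Both called erasers hold a hexamer, shown here because they are the only other called carriers of the pathway. The site of Kdm6b is chr11:69399555-69399580 (minus strand) and that of Bap1 chr14:31259659-31259683 (plus strand).
Kdm6b: gcctcccctcACCGACTttggccttt
Bap1: ttcaattctcCCGACTgtgccagct
Together, 10 of the 54 Polycomb genes searched hold either hexamer (18.5%, against 12.1% of all genes). With the block 3 of the 10 were lower (Rnf2, Kdm6b and Bap1), 1 was higher (Ezh2), and the remaining 6, Cbx8 among them, lay at -0.15 to 0.09 and were not called. The called carriers among these genes thus lay on both sides of 0. Of all 1535 searched genes with a hexamer, 480 were called lower with the block, 122 higher and 933 not called. Over all genes, 118 of 217 called lower without the block hold one (54.4%), 0 of 50 called higher, and 11.4% of those not called. Of 315 genes with both hexamers, like Ezh2, Cbx8 and Kdm6b, 35 were called lower without the block (11.1%). With it 128 (40.6%) were called lower and 19 (6.03%) higher.

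**Figure D5:**
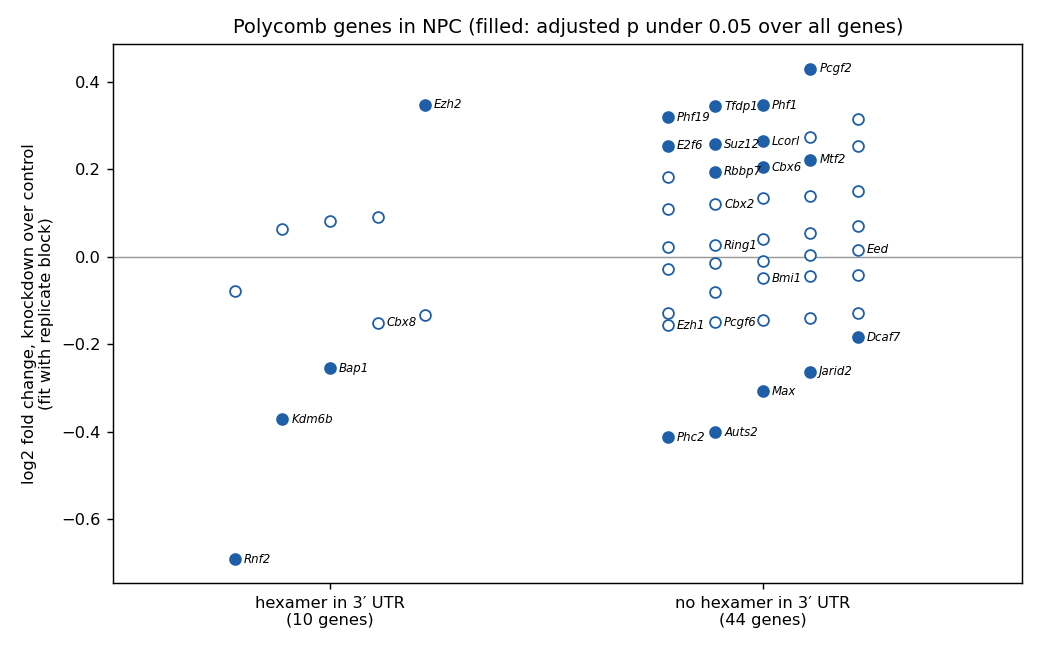
Log2 fold change of labelled knockdown over control NPC, from the fit with the replicate number as a block, for the 10 Polycomb genes with and the 44 without a hexamer in the annotated 3′ UTR; filled points have an adjusted p under 0.05 over all genes. Rnf2 at -0.69 is the lowest of the 54, and carriers range up to Ezh2 at 0.35.

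The 5 genes whose pattern was most like that of Rnf2 were not Polycomb genes. Polycomb genes are few among the genes ranked, so their absence from the first 5 is no result about them. Likeness was the root mean square difference to Rnf2 in log2 CPM, centred within each system, over the 12 libraries and 9531 named genes of at least 5 CPM in both systems (median 0.275). Ubqln1, a ubiquitin-binding shuttle factor, was nearest (0.0566), then the small GTPase gene Rac1 (0.0575), the RNA polymerase II subunit gene Polr2g (0.0593), Kctd5, an adaptor of ubiquitin ligases (0.0639), and Fkbp1a, a prolyl isomerase (0.0663). All 5 were called lower in NPC (log2 fold changes -0.75 to -0.57) and had cortex estimates of -0.10 to 0.01. These values follow from choosing the genes by likeness to Rnf2 in the same libraries and are no separate result. The nearest other member was Ezh1, at rank 1716, and the farthest ranked was Ezh2, at 8727. Each of the 5 also holds a hexamer in its 3′ UTR. The measure of likeness did not use that feature, but it was singled out on such genes. Of the 217 searched genes called lower in NPC without the block, 54.4% hold a hexamer.
Ubqln1: tttccttgtgCCGACTggaggagca
Rac1: aaaagaccagCCGACTagcttttgc
Polr2g: gtgtggctttCCGACTtgagttcag
Kctd5: agcatctaggACCGACctcctcctt
Fkbp1a: agacacctacCCGACTgaatgtgtt
These sites lie at chr13:58177126-58177150, chr5:143506399-143506423, chr19:8793326-8793350 and chr17:24048050-24048074 (minus strand) and chr2:151560707-151560731 (plus strand), in the order listed.

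Genes that Polycomb complexes are known to silence were mostly too low to test. Of 39 Hox genes, 0 passed the count filter in either system, and the highest, Hoxa5, averaged 0.369 CPM over the NPC libraries. Of 16 other known targets, 5 were tested in each system and 0 were called without the block in edgeR (0 had an unadjusted p under 0.05). Cdkn2a, a cell cycle inhibitor gene silenced by BMI1, stood at 21.6, 26.3 and 39.0 CPM in labelled knockdown NPC, against 21.8, 26.2 and 39.9 CPM in control NPC. The values matched pair by pair, and the log2 fold change was -0.02 (-0.01 with the block, 95% interval -0.16 to 0.13). Its neighbour Cdkn2b stood at 12.8, 19.8 and 25.8 CPM in labelled knockdown NPC, against 20.6, 22.9 and 30.9 CPM in control NPC. It was lower in 3 of 3 pairs and called with the block (log2 fold change -0.37, SE 0.09, adjusted p = 0.0117, edgeR), not without it, nor with the block when pair 3 was left out (-0.43, adjusted p = 0.0896, edgeR). The highest target in cortex, the deep-layer neuron gene Fezf2, had a log2 fold change of -0.07 (SE 0.11).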

How the data were processed

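Bulk RNA-seq of total RNA covered 12 libraries in 4 groups of 3. The authors aligned reads with HISAT2 to mm10, per the submitters' processing notes. Neither versions nor the counting program, its annotation and its strand setting are given in the sources used here. Deposited values are raw gene counts, checked to be whole numbers with unequal totals (26074094 to 36713205), and 34076 of 34102 identifiers matched GENCODE M21, from which positions, exon lengths and 3′ UTRs were taken.

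Counts were scaled by TMM, filtered by filterByExpr and tested over the whole table with edgeR 4.0.16 (quasi-likelihood, R 4.3.3), on 6 libraries per comparison and on all 12 for the difference between systems. A gene is called when its p, adjusted by Benjamini-Hochberg over all genes, is under 0.05. Log2 fold changes are labelled cKO or knockdown over control. Deviations from the group means of libraries with the same number had correlations of 0.48, 0.50 and 0.44 in NPC and of 0.02, -0.16 and -0.02 in cortex, so NPC numbers pair the libraries, and blocked values are given where calls change. Replicates differed by more than counting noise. Alternatives were RLE factors, DESeq2 1.42.0, no count filter, a joint fit of the 12 libraries, the block, leaving out libraries (also those above 1000 CPM of Ttr) and sex as a covariate; DESeq2 with the block was added after seeing the data. Figures used matplotlib 3.10.9.

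The members, lists, hexamers and tests were chosen with earlier results of these data known. Named are the 10 members; of each other list, genes called in edgeR without or with the block (at most 6 per list and comparison, smallest p first) or else the 2 highest; the 5 genes most like Rnf2; and Srsf10. Trmt1l, the neighbours of Ring1 and the remaining called genes were named after their values were seen.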

Additional observations from a re-analysis of the deposited data

Results flagged for a closer look

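The change of Rnf2 differed between the systems. The change in NPC minus the change in cortex was -0.65 on the log2 scale (SE 0.09, adjusted p = 0.00431 over all genes, edgeR). Rnf2 was lower in 3 of 3 NPC pairs, as were 26.6% of all genes. The difference was called under all 16 alternatives run, at -0.70 to -0.62 (adjusted p 2.52e-09 to 0.0175, edgeR or DESeq2). These refit the same libraries and are no independent evidence, and Rnf2 was picked with earlier results of these data known.

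The change of Ezh2 was called as different between the systems in 2 of 16 alternatives, and not in the main fit. With the replicate number as a block in NPC the value was 0.64 (SE 0.11, adjusted p = 0.00611, edgeR). Ezh2 was higher in 3 of 3 NPC pairs, as were 27.2% of all genes. The labelled cKO cortex libraries all lay below the controls, as for 8.78% of all genes. Without the block the value was 0.64 with an adjusted p of 0.102 (edgeR), and with DESeq2 0.63 with an adjusted p of 0.0230. The other alternatives did not call it (adjusted p up to 0.231, edgeR).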

How the results depend on the processing

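No called value changed sign under any alternative run; several uncalled estimates near 0 did, among them Rnf2 and Bmi1 in cortex and Cbx2 and Cbx8 in NPC. Rnf2 was called in NPC under all 15 alternatives (-0.72 to -0.67, adjusted p up to 0.0489, edgeR or DESeq2). Leaving out single libraries gave 0 members called in cortex, 1 in NPC and 1 for the difference between systems each time, and 0 other Polycomb genes and 0 targets in either system. In cortex, 1 member was called without a count filter and 1 by DESeq2, and other Polycomb genes called were 2 without a filter, 3 with DESeq2 and 2 in the fit of all 12 libraries. In NPC without the block, other Polycomb genes called were 1 without a filter, 5 with DESeq2 and 5 in the fit of all libraries. The replicate block gave 3 members, 16 other Polycomb genes and 1 target. With the block and a pair left out, 2 to 4 members, 8 to 17 other genes and 0 to 1 targets were called; leaving out pair 1 added Pcgf6 (-0.23), leaving out pair 2 removed Suz12 and gave 11 other genes, and leaving out pair 3 gave 8 other genes and 0 targets. Of all genes, the blocked fit called 24.7% with all pairs, 30.4% without pair 1, 15.2% without pair 2 and 11.4% without pair 3. DESeq2 with the block, chosen after seeing the data, gave 3 members, 13 other genes and 1 target. For the difference between systems, 2 members were called by DESeq2 and 2 with the block. In cortex, where numbers do not pair libraries, the block called 0 members, 0 other genes and 0 targets, and 1 gene in all. Leaving out the libraries rich in Ttr moved Rnf2 in cortex to -0.11 (not called). Causes of these shifts were not tested. Depth limits Hox genes, which stood near 0 counts.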
